A study of Mus musculus with 71 samples.

Results

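Neuropilins, A-type plexins and class 3 semaphorins were followed as 1 receptor and ligand system through 3 regions of the mouse reward circuit after cocaine self-administration. The set held 10 of the 37681 genes of the deposited tables: the co-receptors Nrp1 and Nrp2, the receptors Plxna1, Plxna2, Plxna3 and Plxna4, and the secreted ligands Sema3a, Sema3c, Sema3e and Sema3f. The genes were chosen by name, with earlier results of cocaine against saline in these same libraries known, so their differences between cocaine and saline are given as a description. The differences between brain regions were not used in that choice and were tested.

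Class 3 semaphorins are secreted cues that repel or attract growing axons and later act on dendrites and synapses. Most of them bind a neuropilin, which lacks a signaling domain of its own and passes the signal through a plexin A partner to small GTPases and the cytoskeleton. Sema3a signals mainly through Nrp1, Sema3f mainly through Nrp2, Sema3c through both, and Sema3e can bind the plexin Plxnd1 without a neuropilin. Neuropilins are also co-receptors for vascular endothelial growth factor on blood vessels. In the developing midbrain, members of this system guide the axons of dopaminergic neurons.

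RNA-seq was performed on wild-type C57BL/6 mice, adult males and females, that had learned to respond for food, received a jugular catheter and then self-administered cocaine or saline intravenously, with saline as the control. Micropunches of the nucleus accumbens (NAc), ventral tegmental area (VTA) and prefrontal cortex (PFC) were taken after 1 or 28 days of abstinence. Each of the 12 groups held 6 libraries except saline VTA at 28 days, which held 5, giving 71 in all. The labels do not say whether each library is 1 animal, so the spread between libraries may in part be technical, and in these bulk samples fewer cells of a type and less RNA per cell cannot be told apart. Libraries held 20971967 to 49700932 reads assigned to genes, and the members 18 to 11233 reads per library.

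The labelled regions showed their defining markers, but several libraries stood apart. Tyrosine hydroxylase (Th) was at 103 to 373 RPKM (reads scaled to gene length and library size) in the VTA libraries of 1 day and at 140 to 654 at 28 days, against at most 9.65 in the NAc and 5.28 in the PFC. Ppp1r1b, a marker of striatal medium spiny neurons, was at 431 RPKM or more in every NAc library, and Slc17a7, a marker of cortical excitatory neurons, at 338 or more in every PFC library. At 28 days, PFC saline library 4 held 1455 summed RPKM of the 11 medium spiny neuron markers found, against 110 to 147 in the other saline libraries. VTA libraries varied widely in markers of meningeal and perivascular fibroblasts, whose 7 genes summed to at most 491 RPKM with medians of 42.4 to 155 per group, in the dopamine neuron list, whose 10 genes summed to 668 to 2783 RPKM, and in the cerebellar or hindbrain list, whose 7 genes summed to 0.611 to 238.

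An A-type plexin was the most abundant member in each of the 6 saline groups, and the lowest mean was that of Sema3a in 4 of them and of Sema3f in the other two. In both NAc groups and in the PFC at 28 days, the lowest member did not differ beyond the spread from the next. Plxna2 led in the NAc, at 22.5 ± 1.4 RPKM at 1 day (SD, n = 6) and 19.0 ± 1.1 at 28 days (SD, n = 6), and in the PFC at 1 day, at 23.3 ± 1.2 (SD, n = 6). At 28 days in the PFC, Plxna2 and Plxna1 did not differ beyond their spread, at 18.8 ± 1.9 and 18.7 ± 2.1 RPKM (SD, n = 6). In the VTA, Plxna1 led at both times, at 13.8 ± 0.98 RPKM at 1 day (SD, n = 6) and 15.8 ± 3.4 at 28 days (SD, n = 5).

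Plxna4 had the narrowest relative range between groups, with medians of 8.03 to 12.0 RPKM over the 6 saline groups. Plxna3 was the least abundant A-type plexin in every saline group, at medians of 3.47 to 6.44 RPKM. Which neuropilin was higher was not the same in all groups. Nrp1 was above Nrp2 in both PFC tables, at 8.75 ± 0.60 against 4.71 ± 0.93 RPKM at 1 day and 7.01 ± 0.91 against 4.22 ± 1.2 at 28 days (SD, n = 6 each). Nrp2 was above Nrp1 in the NAc at 1 day, at 8.76 ± 1.7 against 5.59 ± 0.54 RPKM (SD, n = 6 each). At 28 days in the NAc they did not differ beyond their spread, at 4.87 ± 1.4 for Nrp2 and 4.25 ± 0.70 for Nrp1 (SD, n = 6 each). In the VTA the ranges of both genes overlapped at both times.

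The ligands also differed by region. Sema3a was scarce in the VTA, at 0.611 ± 0.30 RPKM at 1 day (SD, n = 6), where saline library 4 held 18 reads, and at 1.13 ± 0.31 at 28 days (SD, n = 5). Sema3c was highest in the PFC, at 6.43 ± 0.67 RPKM at 1 day and 5.44 ± 0.44 at 28 days (SD, n = 6 each). At 28 days Sema3f was highest in the NAc, at 7.81 ± 0.41 RPKM, and lowest in the PFC, at 2.80 ± 0.96 (SD, n = 6 each). At 1 day it was again lowest in the PFC, at 1.39 ± 0.27 RPKM (SD, n = 6). It was then at 3.46 ± 1.1 in the NAc and 4.12 ± 0.59 in the VTA (SD, n = 6 each). Sema3e lay between 3.69 and 5.51 RPKM on average in all 6 saline groups. In 28-day saline VTA, neighbors in the order from Nrp2 down to Sema3c did not differ beyond their spread.

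**Figure D1:**
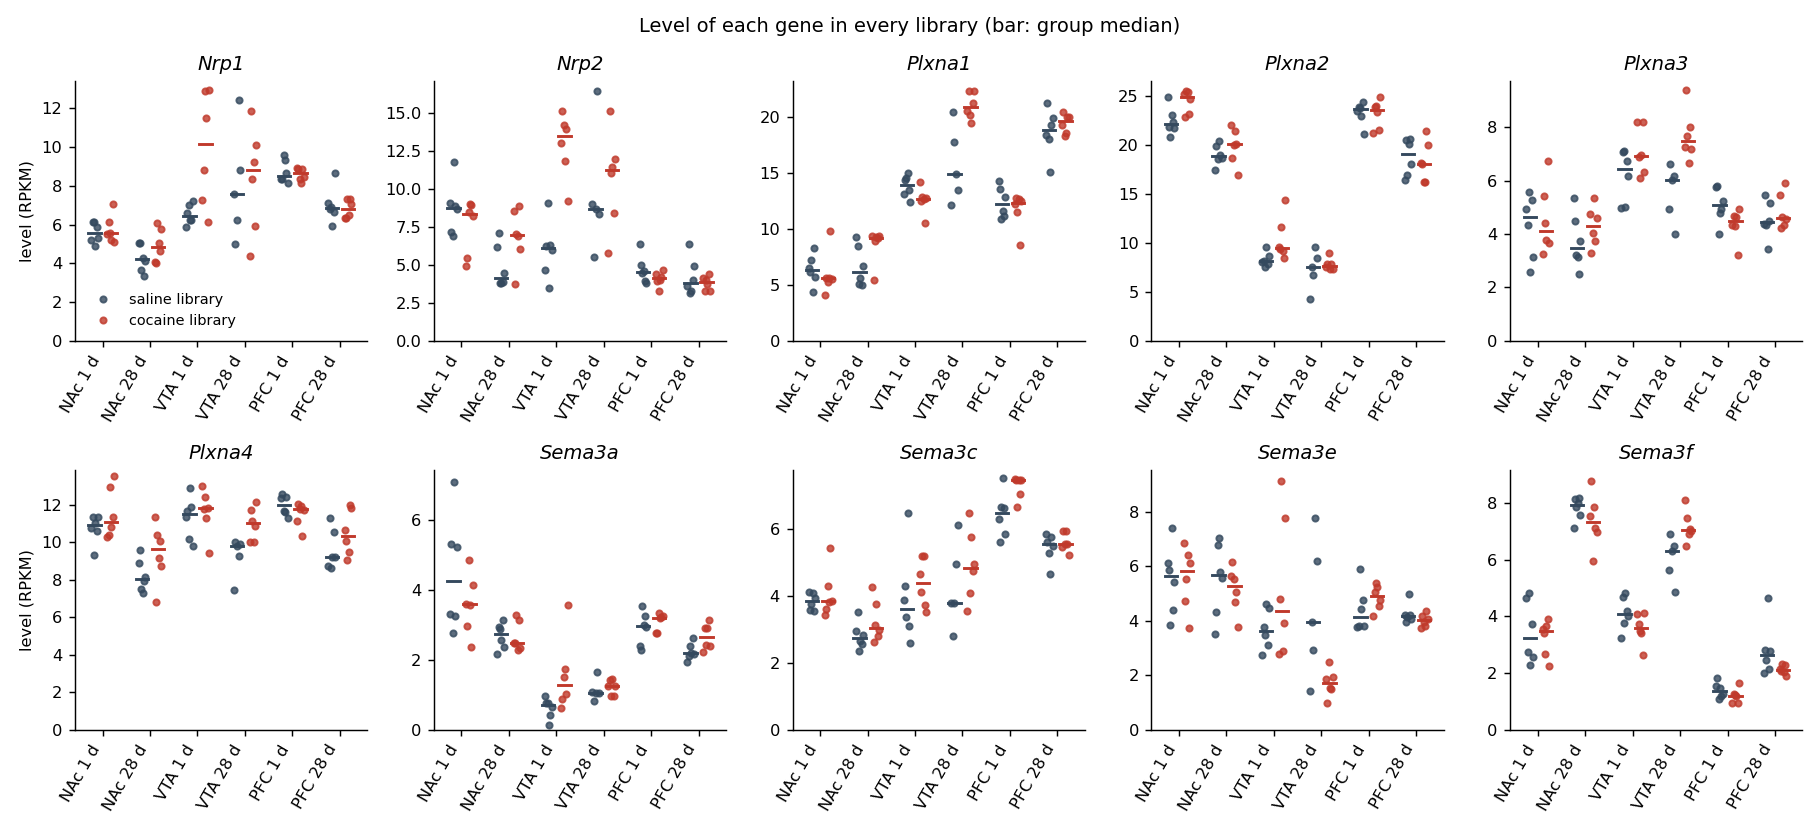
Level of each of the 10 genes (RPKM, y axis from 0) in every library, by region and day of abstinence (x axis); points are libraries, blue-grey for saline and red for cocaine, and bars are group medians. In the VTA at 1 day the cocaine points of Nrp2, from 9.21 to 15.2 RPKM, lie above all its saline points, from 3.46 to 9.12.

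The region contrasts asked where each part of the system is expressed in control animals. They were tested in the saline libraries of 28 days with edgeR's quasi-likelihood test, adjusted over 17181 genes, and each region is its own deposited table, so region and any batch between tables cannot be told apart. In the NAc against the VTA, 8 of the 10 members passed an adjusted p under 0.05, where 62.5% of all genes did. Of these, 3 were higher in the NAc, where 29.8% of all genes were called higher, and 5 were lower, where 32.6% were called lower. In the NAc against the PFC, 5 members passed beside 40.7% of all genes, 1 of them higher in the NAc (20.0% of all genes) and 4 lower (20.7%). In the VTA against the PFC, 6 members passed beside 57.8% of all genes, 2 higher in the VTA (29.8%) and 4 lower (28.1%). With differences this common over all genes, the counts do not set the members apart, and the direction of each gene is the result.

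Both neuropilins were lower in the NAc than in the VTA at 28 days. Nrp1 differed by a log2 of -0.81 ± 0.18 (SE, adjusted p = 0.000738) from the VTA and by -0.77 ± 0.17 from the PFC (adjusted p = 0.0015). Nrp2 differed by -0.87 ± 0.25 from the VTA (adjusted p = 0.00546) and was 1.03 ± 0.25 higher in the VTA than in the PFC (adjusted p = 0.00178). These 28-day VTA means lean on saline library 4, which held the highest level of both neuropilins, 12.4 RPKM of Nrp1 and 16.5 of Nrp2, the lowest dopamine neuron sum, 668 RPKM, and the highest fibroblast sum, 389 RPKM. Without it the differences of the NAc from the VTA were -0.59 for Nrp1 and -0.59 for Nrp2, and both were still called. The Nrp2 difference of the VTA from the PFC was 0.76 without it, also still called. In the 1-day saline libraries Nrp1 was not called between the NAc and the VTA, at -0.14 ± 0.07 (adjusted p = 0.0787), nor was Nrp2 between the VTA and the PFC, at 0.23 ± 0.17 (adjusted p = 0.261). Nrp2 was there 0.64 ± 0.17 higher in the NAc than in the VTA (adjusted p = 0.00281), so its direction between these regions was not the same at both times. The 1-day fits between regions joined NAc counts with VTA and PFC reads recovered from the RPKM values. Nrp1 in the VTA against the PFC also differed between the times, at 0.04 ± 0.18 at 28 days and -0.53 ± 0.07 at 1 day (adjusted p = 1.28e-06). Without VTA saline library 4 the 28-day value was -0.17 ± 0.15. Libraries of each time were deposited apart, so time and any batch cannot be told apart.

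Among the plexins, Plxna1 and Plxna2 differed in opposite directions between the NAc and the VTA. Plxna1, a widely used partner of both neuropilins, was lower in the NAc by a log2 of -1.13 ± 0.17 against the VTA (adjusted p = 1.18e-05) and by -1.52 ± 0.16 against the PFC (adjusted p = 9.92e-07). Plxna2 was higher in the NAc by 1.49 ± 0.15 against the VTA (adjusted p = 1.26e-07) and lower in the VTA than in the PFC by -1.52 ± 0.15 (adjusted p = 1.11e-07). The same contrasts in the 1-day saline libraries were -1.03 ± 0.11 and -0.99 ± 0.11 for Plxna1 and 1.51 ± 0.06 and -1.59 ± 0.06 for Plxna2, all called. Plxna3 was -0.46 ± 0.17 lower in the NAc than in the VTA (adjusted p = 0.0277), and Plxna4 was -0.27 ± 0.09 lower in the NAc than in the PFC (adjusted p = 0.0257). Both of these calls depended on the libraries: they held in 10 and 11 of the 17 fits that left out 1 library. The call of Plxna1 in the VTA against the PFC, -0.40 ± 0.17 (adjusted p = 0.0474), held in 8 of the 17 and not without VTA saline library 4, and at 1 day that difference was 0.05 ± 0.11.

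Among the ligands, Sema3a was lowest in the VTA and Sema3f in the PFC. Sema3a was 1.35 ± 0.15 higher in the NAc than in the VTA (adjusted p = 4.72e-07) and -1.14 ± 0.15 lower in the VTA than in the PFC (adjusted p = 3.9e-06), and at 1 day these differences were larger, 2.96 ± 0.30 and -2.37 ± 0.30. Sema3f was 1.43 ± 0.16 higher in the NAc than in the PFC (adjusted p = 1.62e-06) and 0.95 ± 0.16 higher in the VTA than in the PFC (adjusted p = 7.51e-05). PFC saline library 4, with its striatal markers, held the highest Sema3f of the PFC, 4.63 RPKM, and without it the differences were 1.65 and 1.14. Sema3f was also 0.48 ± 0.16 higher in the NAc than in the VTA (adjusted p = 0.016), but -0.16 ± 0.17 at 1 day, with no call. Sema3c was -0.50 ± 0.15 lower in the VTA than in the PFC (adjusted p = 0.00963), lower in the NAc than in the PFC by -1.0 ± 0.15 (adjusted p = 2.78e-05), and lower in the NAc than in the VTA by -0.51 ± 0.15 (adjusted p = 0.00774) at 28 days but not at 1 day, where the difference was 0.04 ± 0.16. Sema3e was not called between any pair of regions in 28-day saline mice, with a difference of 0.41 ± 0.30 between the NAc and the VTA (adjusted p = 0.244). Without VTA saline library 4 that difference was 0.71 and called. In the 1-day saline libraries Sema3e was called in the NAc against the VTA, at 0.66 ± 0.16 (adjusted p = 0.00107), and in the VTA against the PFC, at -0.37 ± 0.16 (adjusted p = 0.0456). In the 28-day cocaine libraries the NAc against the VTA gave 1.66 ± 0.15 (adjusted p = 8.77e-09).

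**Figure D2:**
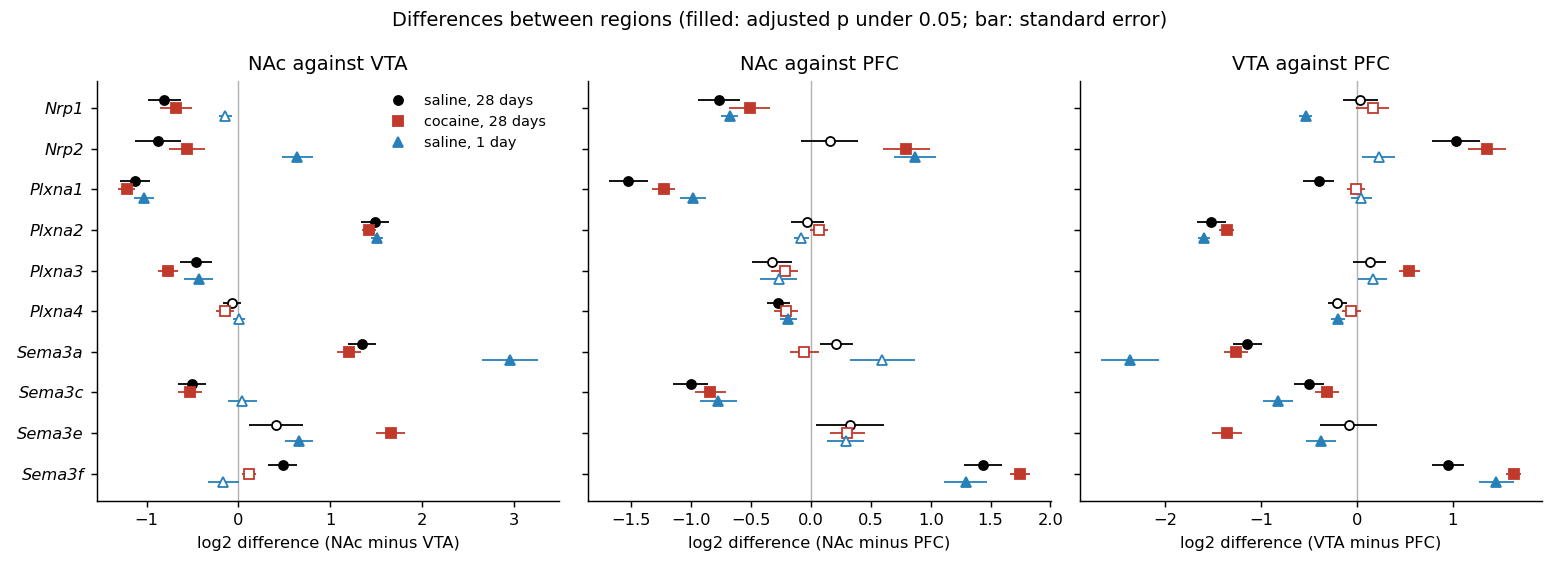
Log2 difference of each gene between regions (x axis, first region minus second) in 28-day saline, 28-day cocaine and 1-day saline libraries; bars are standard errors and filled symbols passed an adjusted p under 0.05. Plxna1, Plxna2 and Sema3a keep their side of 0 in NAc against VTA in all 3 sets, whereas Nrp2 lies at -0.87 in 28-day saline and at 0.64 in 1-day saline.

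In the VTA after 1 day of abstinence, the Nrp2 level did not overlap between the groups. It ranged from 9.21 to 15.2 RPKM, with a median of 13.5, in the cocaine libraries, and from 3.46 to 9.12, with a median of 6.11, in the saline libraries. Every cocaine library was above every saline library, although the lowest cocaine library and the highest saline library nearly met. The fitted log2 difference, cocaine minus saline, was 1.14 ± 0.19 (SE, limma on log2(RPKM + 0.1), n = 6 each), and 1.24 without cocaine library 6. Over the 12 fits that left out 1 library it lay between 1.00, without saline library 4, and 1.28, without saline library 3. Groups did not overlap for 1 of the 10 members and for 1.67% of the 15042 genes tested.

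Nrp1 was higher in most cocaine VTA libraries of 1 day. Its level was 6.15 to 12.9 RPKM with a median of 10.1 in the cocaine libraries and 5.86 to 7.23 with a median of 6.44 in the saline libraries. Of the 6 cocaine libraries, 5 were above the highest saline library, and the other lay within the saline range. The log2 difference was 0.54 ± 0.17 (SE), and 0.46 without cocaine library 6, the highest in fibroblast markers.

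The Nrp1 ligand Sema3a was also higher, from a low level. Cocaine libraries held 0.616 to 3.56 RPKM with a median of 1.27, and saline libraries 0.128 to 0.962 with a median of 0.706. The groups overlapped, 4 cocaine libraries were above all saline libraries, and cocaine library 6 stood far above the rest. The log2 difference was 1.16 ± 0.42 (SE), 0.89 without cocaine library 6, and 0.86 without saline library 4, the lowest. The remaining members differed less: Plxna2 by 0.31 ± 0.12 (0.21 without cocaine library 6), Sema3e by 0.36 ± 0.28, Plxna3 by 0.21 ± 0.11, Sema3c by 0.20 ± 0.19, Plxna4 by 0.04 ± 0.09, Plxna1 by -0.14 ± 0.07 and Sema3f by -0.20 ± 0.12, all with overlapping groups.

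No member was called in this comparison by limma, where 0.0665% of genes were called (10 genes), and 4 members had an unadjusted p under 0.05, as did 15.7% of all genes. These 4 were Nrp1, Nrp2, Plxna2 and Sema3a. edgeR on the reads recovered from the RPKM values called 1 member, Nrp2, beside 0.341% of 16132 genes, and 6 members had an unadjusted p under 0.05 by that test. Because the members were chosen with this contrast known, nothing is read from these counts.

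Markers of other cells moved in the same VTA libraries. The 7 fibroblast genes found of the 8 listed summed to 55.7 to 491 RPKM in the cocaine libraries, with a median of 155, and to 19.0 to 114 in the saline libraries, with a median of 48.2. Cocaine library 6 was the highest, and also held 152 summed RPKM of choroid plexus markers. The dopamine neuron list summed to 685 to 1629 RPKM in the cocaine libraries against 1130 to 2602 in the saline libraries, and the microglia list to 137 to 220 against 209 to 306. The endothelial list summed to 111 to 199 RPKM against 105 to 145, and its 8 genes all had a difference above 0, with none called. The oligodendrocyte precursor list summed to 90.2 to 105 against 101 to 116. Cocaine libraries 3, 4 and 6 had the highest levels of Nrp1 and Sema3a, and the highest fibroblast sums.

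With the mean log2 level of the fibroblast list as a covariate, chosen after seeing the data, the Nrp1 difference was 0.16 ± 0.13 and the Sema3a difference 0.27 ± 0.35 (SE). The Nrp2 difference under the same covariate was 1.04 ± 0.24. With the cortical neuron list as covariate, the values were 0.20 ± 0.17 for Nrp1, 0.44 ± 0.47 for Sema3a and 1.02 ± 0.25 for Nrp2. With the dopamine neuron list they were 0.40 ± 0.20, 1.42 ± 0.52 and 1.31 ± 0.23. The Nrp2 difference was above 1 beside each list. Those of Nrp1 and Sema3a were under 0.45 beside the fibroblast and cortical lists, and 0.40 and 1.42 beside the dopamine neuron list. The part of these cells in the differences was not tested.

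**Figure D3:**
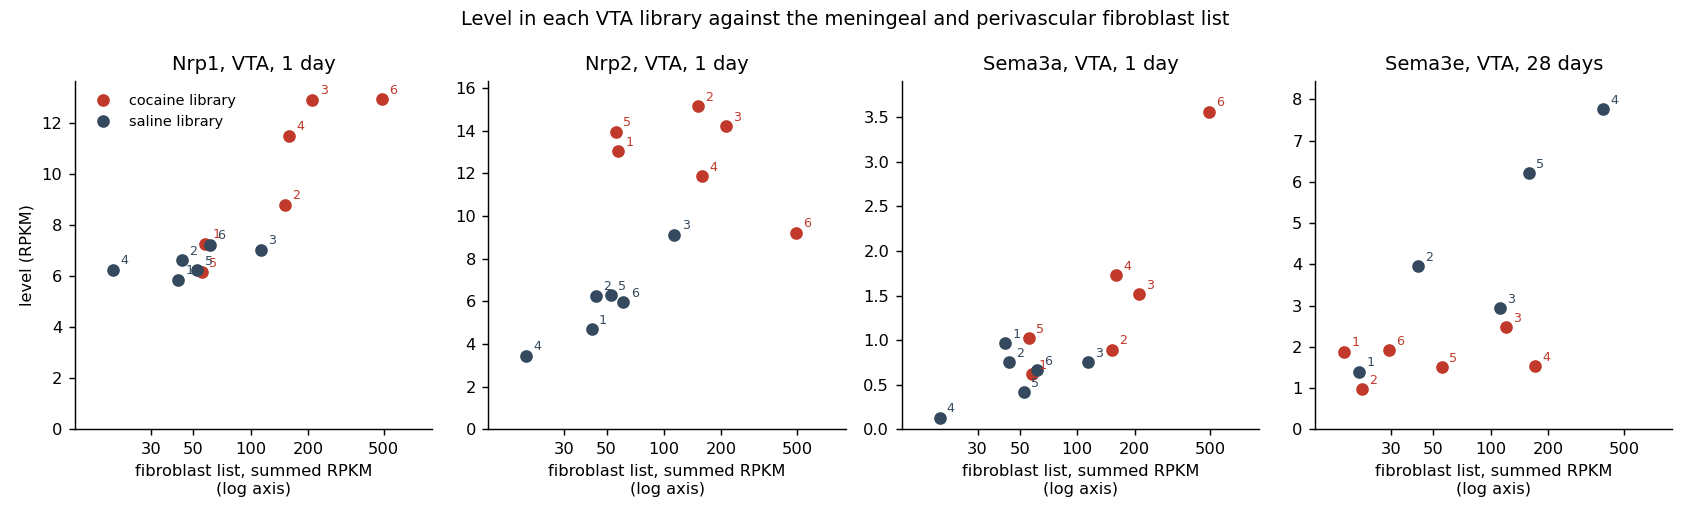
Level (RPKM, y axis from 0) of Nrp1, Nrp2 and Sema3a in each VTA library of 1 day and of Sema3e in each VTA library of 28 days, against the summed RPKM of the fibroblast markers (x axis, log scale); numbers name the libraries within a group. At 1 day the cocaine libraries with the most fibroblast marker RNA have the highest Nrp1 and Sema3a, up to 12.9 and 3.56 RPKM, and Nrp2 is at 9.21 RPKM in the library with the highest sum, 491.

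In the VTA after 28 days, the differences lay in other members: 3 plexins and Sema3f were higher in cocaine libraries, and Sema3e was lower. Plxna3, which serves mainly Nrp2 in axon repulsion by Sema3f, was at 6.66 to 9.38 RPKM with a median of 7.48 in the cocaine libraries, and at 4.92, 6.62, 6.02, 6.18 and 3.99 in saline libraries 1 to 5. The groups did not overlap, by a gap far smaller than the range of either group. The log2 difference was 0.47 ± 0.13 (SE, edgeR, n = 6 and 5).

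Plxna1 was at 19.5 to 22.3 RPKM with a median of 20.9 in the cocaine libraries, and at 12.2, 20.5, 17.8, 14.9 and 13.5 in the saline libraries. All cocaine libraries were close together, and 4 of them were above the highest saline library. The log2 difference was 0.41 ± 0.12. Over the fits that left out 1 library it lay between 0.34, without saline library 1, and 0.53, without saline library 2. Saline library 1, the lowest in Plxna1 and Plxna4, stood apart over all genes. Its read counts differed from those of saline libraries 2 to 5 by a chi-square of 104 to 171 per degree of freedom. The other pairs of that group differed by 19.0 to 83.9. Plxna4 was at 10.0 to 12.2 RPKM in the cocaine libraries and at 7.47, 10.0, 9.81, 9.27 and 9.90 in the saline libraries, so its groups did not overlap but all but touched, with a log2 difference of 0.24 ± 0.09. Sema3f was at 6.47 to 8.08 RPKM against 5.64, 6.90, 6.31, 6.47 and 4.86, with overlapping groups and a log2 difference of 0.25 ± 0.09.

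Over all libraries, Sema3e had the largest difference by size of any member in the 6 comparisons of cocaine with saline. It was at 0.970 to 2.48 RPKM with a median of 1.70 in the cocaine libraries, and at 1.40, 3.95, 2.93, 7.76 and 6.21 in the saline libraries. Saline libraries 2 to 5 were above every cocaine library and saline library 1 lay among them. The log2 difference was -1.38 ± 0.37 (SE), and -1.07 without saline library 4, which is smaller than those of Nrp2 and Sema3a in the VTA at 1 day. The neuropilins showed no such shift: Nrp1 was at 4.39 to 11.8 RPKM in the cocaine libraries and at 4.99 to 12.4 in the saline libraries (log2 difference 0.05 ± 0.27, and 0.28 without saline library 4), and Nrp2 at 5.80 to 15.2 against 5.52 to 16.5 (0.15 ± 0.27, and 0.44 without saline library 4). Their ranges were wide in both groups and covered each other.

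The groups of 2 of the 10 members did not overlap, Plxna3 and Plxna4, as for 1.27% of the 16937 genes tested. edgeR called no member and no gene at all (0%). An unadjusted p under 0.05 was reached by 5 members, the 3 plexins, Sema3f and Sema3e, and by 11.5% of all genes. DESeq2 called 1 member, Sema3e, beside 0.437% of genes, and 5 members had an unadjusted p under 0.05 by that test. Nothing is read from these counts, for the reason above.

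Tissue markers again differed between these libraries. The cortical neuron list summed to 73.9 to 87.9 RPKM in the cocaine VTA libraries and to 74.8 to 134 in the saline ones, the cerebellar or hindbrain list to 0.611 to 89.2 against 6.61 to 159, and the microglia list to 142 to 241 against 216 to 426. The interneuron list summed to 200.3 to 306 RPKM against 276 to 421, and the endothelial list to 111 to 161 against 129 to 267, with all 8 of its genes below 0 and none called. Saline library 4 had the highest sum of the cortical and of the cerebellar or hindbrain list, and the highest Sema3e. With the cortical list as covariate the Sema3e difference was 0.00 ± 0.33 (SE). It was -0.92 ± 0.31 with the fibroblast list and -1.17 ± 0.36 with the dopamine neuron list. Beside the same lists, the difference of Plxna1 lay at 0.39 to 0.42 and that of Plxna3 at 0.43 to 0.47. With the cortical list, Plxna1, Plxna2 and Plxna4 had an unadjusted p under 0.05 by edgeR, beside 3764 of 16937 genes. Plxna3, Sema3f and Sema3e no longer did. Plxna2, by contrast, went from 0.10 ± 0.16 to 0.63 ± 0.16 with the cortical list. The part of other cells in the Sema3e difference was not tested further.

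In both groups, the library with the lowest dopamine neuron sum held the highest level of both neuropilins. Cocaine library 2 and saline library 4 held the highest Nrp2 of their groups, 15.2 and 16.5 RPKM, and the lowest dopamine neuron sums, 873 and 668. Cocaine library 1 held the lowest Nrp1 and Nrp2 of its group, 4.39 and 5.80 RPKM, with a sum of 2470, and saline library 2 the lowest of its group, 4.99 and 5.52, with a sum of 2783. With the dopamine neuron list as covariate the differences were 0.23 ± 0.15 for Nrp1 and 0.32 ± 0.17 for Nrp2.

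**Figure D4:**
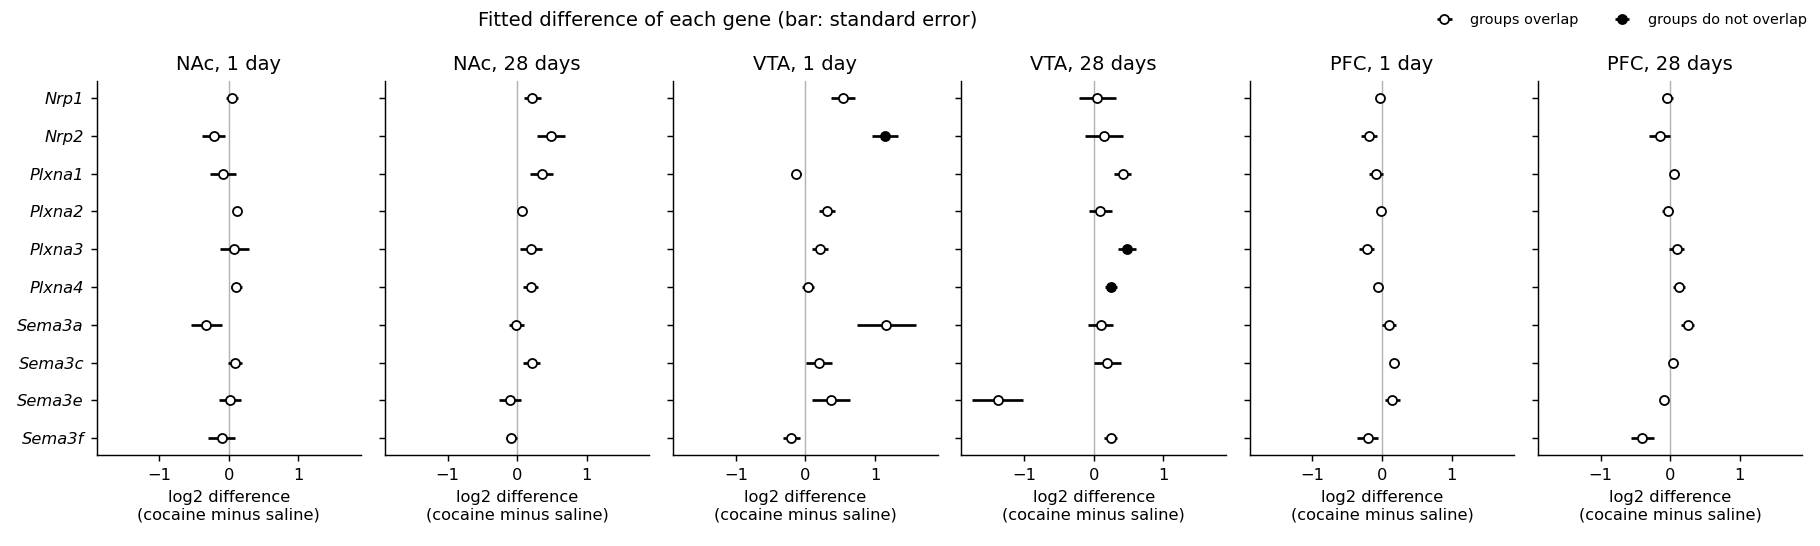
Fitted log2 difference, cocaine minus saline (x axis), of each gene in the 6 comparisons; bars are standard errors, and filled points mark genes whose groups of libraries do not overlap. The 3 filled points are Nrp2 in the VTA at 1 day (1.14) and Plxna3 and Plxna4 in the VTA at 28 days (0.47 and 0.24).

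**Figure D5:**
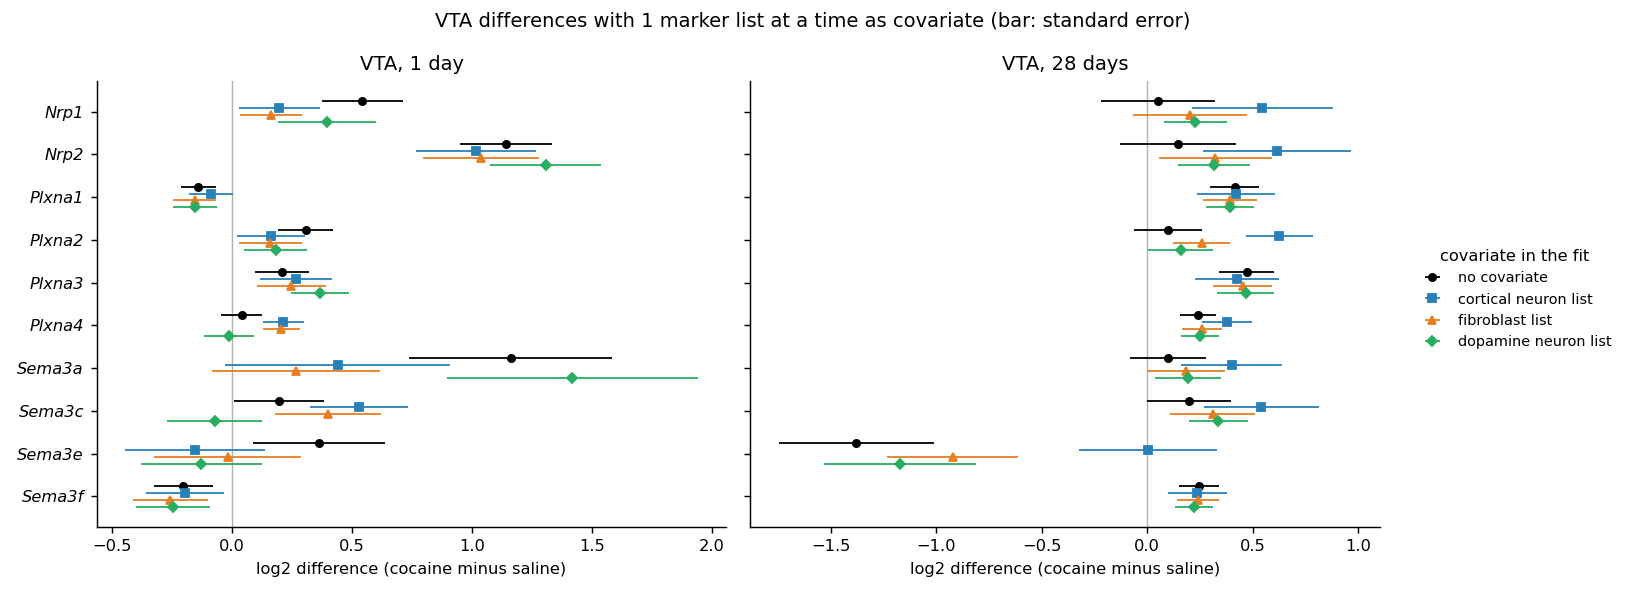
Log2 difference, cocaine minus saline (x axis), of each gene in the VTA at 1 and 28 days, without a covariate and with 1 marker list at a time as covariate; bars are standard errors. Nrp2 at 1 day stays between 1.02 and 1.31 in all 4 fits, Nrp1 at 1 day is at 0.54 without and 0.16 with the fibroblast list, and Sema3e at 28 days is at -1.38 without and 0.00 with the cortical list.

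The promoters of the neuropilins and ligands with the largest VTA differences are shown for comparison, since the study centers on the nuclear receptor Nr4a1, which binds a short response element. Of the 10 members, 7 had an entry among RefSeq's promoters (build GRCm38.p6, 250 bases before to 50 after the start, 5′ to 3′ on the gene's strand). Capitals mark GC boxes (GGGCGG or its reverse complement, CCGCCC), which 35.7% of the 32851 promoters of this length hold. The 4 windows lie at chr8:128358823-128359122 (Nrp1), chr1:62703067-62703366 (Nrp2), chr5:13396534-13396833 (Sema3a) and chr5:14025026-14025325 (Sema3e), all on the + strand.
Nrp1: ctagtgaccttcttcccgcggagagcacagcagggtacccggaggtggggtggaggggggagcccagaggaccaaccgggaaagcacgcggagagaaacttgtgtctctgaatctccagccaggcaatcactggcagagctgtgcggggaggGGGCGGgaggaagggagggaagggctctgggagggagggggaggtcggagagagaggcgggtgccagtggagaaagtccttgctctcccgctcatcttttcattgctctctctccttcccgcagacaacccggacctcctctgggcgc
Nrp2: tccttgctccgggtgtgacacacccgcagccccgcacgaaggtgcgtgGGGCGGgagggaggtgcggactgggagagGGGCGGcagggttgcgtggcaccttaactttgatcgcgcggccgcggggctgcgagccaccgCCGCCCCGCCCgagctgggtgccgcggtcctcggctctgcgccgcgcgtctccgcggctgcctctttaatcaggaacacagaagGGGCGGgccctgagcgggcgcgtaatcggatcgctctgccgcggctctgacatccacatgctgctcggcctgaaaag
Sema3a: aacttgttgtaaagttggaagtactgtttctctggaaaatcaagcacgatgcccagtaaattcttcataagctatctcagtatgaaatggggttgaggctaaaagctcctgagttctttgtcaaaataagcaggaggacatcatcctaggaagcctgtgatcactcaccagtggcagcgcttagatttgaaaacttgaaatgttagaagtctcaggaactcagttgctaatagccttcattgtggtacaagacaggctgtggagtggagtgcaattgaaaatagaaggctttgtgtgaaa
Sema3e: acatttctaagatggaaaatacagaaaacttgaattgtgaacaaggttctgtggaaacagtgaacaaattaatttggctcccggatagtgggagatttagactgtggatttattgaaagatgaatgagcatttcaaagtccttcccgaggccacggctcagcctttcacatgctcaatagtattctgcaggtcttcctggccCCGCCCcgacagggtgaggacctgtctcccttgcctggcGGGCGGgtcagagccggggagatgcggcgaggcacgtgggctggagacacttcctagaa
The response element of Nr4a receptors, AAAGGTCA on either strand, was in none of the 7 member promoters and in 1.51% of all promoters. The cAMP response element TGACGTCA was in none of the 7 and in 1.79% of all. At shares this low most sets of 7 windows would hold neither element, so nothing is read from their absence. The neuropilin promoters were rich in G and C, 64.0% in Nrp1 and 70.7% in Nrp2 with 37 CpG pairs, against a median of 52.7% and 7 CpG pairs over all promoters. Nrp2 held 5 GC boxes, a pair of which share a base, and Nrp1 held 1. Sema3a stood at the other end, with 41.3% G and C, 2 CpG pairs and no GC box, and Sema3e held 50.7%, 11 CpG pairs and 2 boxes. In these windows, then, Nrp2 and Sema3a, the members with the largest differences in the VTA at 1 day, had unlike base composition. The Sema3a window, from 13396534 in GRCm38, falls inside the span of the gene in mm9, chr5:13125593-13602565. The builds share the start of Sema3e further along this chromosome: its window begins at 14025026, 250 bases before the mm9 start of 14025276. The Sema3a window thus most likely belongs to an internal start. Its base composition is then not that of the 5′ end of the gene, which limits the comparison with Nrp2.

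In the NAc after 28 days, the medians of Nrp2 and Plxna1 were higher in the cocaine libraries, with overlapping groups. Nrp2 was at 3.72 to 8.88 RPKM with a median of 6.96 in the cocaine libraries and at 3.80 to 7.08 with a median of 4.15 in the saline libraries. Plxna1 was at 5.43 to 9.40 with a median of 9.22 against 5.04 to 9.28 with a median of 6.19. In both genes cocaine library 2 lay with the low saline libraries, and saline libraries 1 and 2 with the high cocaine libraries. The log2 differences were 0.49 ± 0.20 for Nrp2 and 0.35 ± 0.17 for Plxna1 (SE, edgeR, n = 6 each).

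The other members of the NAc at 28 days differed by 0.22 ± 0.12 (Nrp1), 0.21 ± 0.12 (Sema3c), 0.20 ± 0.16 (Plxna3), 0.19 ± 0.10 (Plxna4), 0.06 ± 0.06 (Plxna2), -0.01 ± 0.11 (Sema3a), -0.09 ± 0.08 (Sema3f) and -0.10 ± 0.16 (Sema3e). The groups of every member overlapped, while those of 0.221% of 16295 genes did not. edgeR called no member and no gene (0%), and an unadjusted p under 0.05 was reached by 1 member, Nrp2, and 6.76% of genes. DESeq2 called no member and 14 genes, with 2 members at an unadjusted p under 0.05. Cocaine library 2 held the highest medium spiny neuron sum of its group, 3763 RPKM, and saline libraries 1 and 2 the lowest of theirs, 2361 and 2882. With that list as covariate the differences were 0.39 ± 0.15 for Nrp2 and 0.25 ± 0.09 for Plxna1, and the part of cell composition was not tested.

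In the NAc after 1 day the members differed little. Plxna2 was at 22.9 to 25.5 RPKM with a median of 25.0 in the cocaine libraries and at 20.9 to 24.9 with a median of 22.1 in the saline libraries. All 6 cocaine libraries were above the saline median, but the groups overlapped, and the log2 difference was 0.12 ± 0.06 (SE). The largest by size was Sema3a, at -0.32 ± 0.23, with 2.37 to 4.87 RPKM against 2.76 to 7.10. Nrp2 was at -0.22 ± 0.16. Without saline library 4 these were -0.15 and -0.11. No member was called by edgeR or DESeq2, beside 0.0126% of 15878 genes by edgeR (2 genes) and 21 genes by DESeq2. An unadjusted p under 0.05 was reached by Plxna2 alone among the members by both tools, and by 4.01% of genes by edgeR. The groups of every member overlapped, while those of 0.365% of all genes did not.

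In the PFC the differences were small, and at 28 days the largest rested on 1 library. Sema3f was at 1.89 to 2.31 RPKM with a median of 2.10 in the 28-day cocaine libraries and at 1.99 to 4.63 with a median of 2.62 in the saline libraries. The highest value was saline library 4, which carries the striatal markers. The log2 difference was -0.40 ± 0.17 (SE), and -0.20 without that library. Sema3a was at 2.22 to 3.15 RPKM against 1.94 to 2.63, every cocaine library was above the saline median, and the difference was 0.25 ± 0.09. The other 8 members of the PFC at 28 days lay between -0.15 and 0.13 on the log2 scale.

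At 1 day the PFC difference of Sema3c, a ligand of both neuropilins, was 0.18 ± 0.07, with 6.66 to 7.51 RPKM in the cocaine libraries against 5.62 to 7.52 in the saline libraries. All 6 cocaine libraries were above the saline median, and the groups overlapped through saline library 4. Plxna3 differed by -0.22 ± 0.11 (-0.14 without cocaine library 5), and all 6 cocaine libraries were below the saline median. Called genes over the whole table were 0.00693% at 1 day by limma (1 gene) and none at 28 days by edgeR (0%), and no member was among them. An unadjusted p under 0.05 was reached by 1 member, Sema3c, at 1 day beside 3.78% of genes, and by 2 members, Sema3a and Sema3f, at 28 days beside 5.66%. edgeR on recovered reads gave the same counts of members, 0 called and 1 at an unadjusted p under 0.05, at 1 day, and DESeq2 gave 0 and 2 at 28 days. In the PFC the groups of every member overlapped, while those of 0.159% of genes at 1 day and 0.233% at 28 days did not.

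The rest of the semaphorin pathway was counted from a list of 52 genes, other semaphorins and plexins, co-receptors, vascular growth factor genes and cytoplasmic partners, of which 51 matched. Both this list and the next were drawn up with earlier results of these data known. None was called in any of the 6 comparisons of cocaine with saline. In the VTA at 28 days, 12 of the 51 reached an unadjusted p under 0.05, 9 higher and 3 lower in cocaine libraries, beside 11.5% of all genes, and the list's median log2 difference was -0.03, as over all genes (-0.03). In the PFC at 1 day the list's median was -0.07 with 40 of 49 genes below 0, and the median over all genes was -0.01. The other medians of this list over the cocaine comparisons lay between -0.02 and 0.03.

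Slit, Robo, netrin, ephrin and Eph genes formed the second list, with 31 of 33 matched. In the VTA at 1 day 2 of the 29 tested were called, both higher in cocaine libraries, beside 0.0665% of all genes, and none in the other 5 comparisons. Slit2, a secreted repellent read by Robo receptors, was at 7.71 to 9.79 RPKM in the cocaine libraries against 4.99 to 6.12 in the saline libraries, a log2 difference of 0.62 ± 0.08 (SE, limma, adjusted p = 0.022). Efnb2, an ephrin ligand also expressed on arterial endothelium, was at 5.55 to 7.42 RPKM against 2.31 to 4.33, a difference of 1.03 ± 0.14 (adjusted p = 0.0249). These were the same libraries in which Nrp2 did not overlap and the fibroblast sums were higher. With the fibroblast or the cortical list as covariate limma called 0 genes in all, these included. With the dopamine neuron list it called 10 genes, as many as with no covariate. The part of other cells in these differences was not tested.

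Between regions the pathway list showed the partners beside which the members are expressed. In 28-day saline mice 8 of the 51 genes were called higher and 24 lower in the NAc than in the VTA, 4 higher and 18 lower in the NAc than in the PFC, and 23 higher and 15 lower in the VTA than in the PFC. Over all genes the shares higher and lower were 29.8% and 32.6%, 20.0% and 20.7%, and 29.8% and 28.1%. Plxnd1, the receptor that Sema3e can bind directly, was at 25.0 RPKM in the NAc, 3.94 in the VTA and 11.0 in the PFC on average, 2.77 ± 0.27 higher on the log2 scale in the NAc than in the VTA (edgeR, adjusted p = 7.51e-08). Sema3b, a further class 3 ligand, was at 5.88 RPKM in the VTA and 0.482 in the NAc, a difference of -3.50 ± 0.32 (adjusted p = 4.12e-08). Rnd1, a small GTPase that binds plexins, was -2.55 ± 0.18 lower in the NAc than in the VTA (adjusted p = 1.34e-09), and Mical2, of a family of flavin enzymes that act downstream of plexins, was -2.93 ± 0.17 lower in the VTA than in the PFC (adjusted p = 1.45e-10). In the guidance list of 31 genes, beside the same shares over all genes, 10 were called higher and 12 lower in the NAc than in the VTA, and the netrin Ntn1 stood out in the VTA, 2.75 ± 0.27 above the PFC (adjusted p = 9.67e-08).

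Across the 35 libraries of 28 days, after the mean of each region and treatment group was subtracted, members varied together in pairs. Plxna1 and Plxna3 had a Pearson r of 0.80, Plxna2 and Sema3e 0.75, and Nrp1 and Nrp2 0.73. The neuropilin pair was most alike within the VTA, at 0.95 over 11 libraries, against 0.49 in the NAc and 0.38 in the PFC over 12 libraries each. In the NAc it was Nrp2 and Plxna4 that varied together, at 0.94, and in the PFC Plxna2 and Plxna4, at 0.91. These libraries share depth and dissection, so the values are a description.

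Among 15751 genes tested in all 3 tables of 28 days, the genes outside the set with the pattern most like each member were the following. For Nrp1 they were Ptger3 (r = 0.88), Dsg2 (0.85) and Tgfb2 (0.84), and for Nrp2 Atp2b4 (0.86), Galntl1 (0.83) and Kif26a (0.80). For Plxna1 they were Sema4g (0.88), Dscam (0.87) and Grin3a (0.86), for Plxna2 Pcnxl2 (0.87), Adcy9 (0.87) and Atp2b3 (0.85), for Plxna3 Zfp57 (0.88), Sema4g (0.84) and Srrm4 (0.84), and for Plxna4 Slc4a8 (0.82), Celsr2 (0.78) and Arhgef11 (0.78). Sema4g, a transmembrane semaphorin, was thus near both Plxna1 and Plxna3. Among the ligands, Sema3e was most like Zfp385b (0.88), Slit3 (0.86) and Oprd1 (0.86), Sema3f like Tacr1 (0.83), Dpy19l3 (0.82) and Slc4a11 (0.81), and Sema3c like Sfrp4 (0.71), Mr1 (0.68) and Ppp4r1l-ps (0.68). Sema3a had no close neighbor, with Slc19a1 at 0.59 and 8030453O22Rik and Ppef1 at 0.58. The likeness was not the same in every region, for example 0.97 between Nrp1 and Tgfb2 in the VTA and 0.33 in the PFC.

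In the mouse genome (mm9) the members lie on 6 chromosomes, and 3 of the ligands are on chromosome 5: Sema3a at chr5:13125593-13602565, Sema3e at chr5:14025276-14256689 and Sema3c at chr5:17080099-17236086. Nrp1 lies at chr8:130882973-131029362 and Nrp2 at chr1:62749859-62865269. Plxna2 lies at chr1:196446023-196643063, Plxna1 at chr6:89266310-89312607, Plxna4 at chr6:32094565-32538192, Plxna3 at chrX:71574405-71590028 and Sema3f at chr9:107583833-107612806. Counts cover the exons of each gene, and Plxna1, Plxna4 and Sema3e overlap annotated genes on the opposite strand (Gm16896 for Plxna1, 9430029A11Rik, B230378P21Rik and Gm13851 for Plxna4, Gm4128 for Sema3e), whose reads cannot be told apart where counting ignores strand.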

How the data were processed

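Bulk RNA-seq of 71 libraries was analysed. The authors aligned reads with STAR 2.4.1d to mm9, per the labels. They deposited raw read counts per gene for the NAc at both times and for the VTA and PFC at 28 days, and RPKM values for the VTA and PFC at 1 day. DESeq2 and edgeR, also named in the submitters' processing notes, served among other tools in their own tests of expression, and edgeR also for RPKM. The strand setting of the counting is not given in the sources used here. Columns of the authors' own comparisons (fold changes and p-values) were not used, nor were 30 columns of no labelled sample.

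RPKM steps gave whole reads for 23806 of 23806 VTA genes and 23352 of 23353 PFC genes (tolerance 0.01 reads). Levels are RPKM, from counts over TMM-scaled library size and gene length, or as deposited for the VTA and PFC at 1 day. Libraries held 20971967 to 49700932 reads, so members had 18 reads or more, and precision is lowest for Sema3a in the VTA. Within groups, 175 library pairs differed by a chi-square of 4.73 to 171 per degree of freedom, so none was counted as a duplicate.

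Counts were tested with edgeR 4.0.16 (quasi-likelihood, TMM, filterByExpr with a minimum count of 10 and total of 15) and RPKM with limma 3.58.1 with trend on log2(RPKM + 0.1), after dropping genes averaging under 0.5 RPKM, in R 4.3.3. Log2 values from limma understate changes of low genes. Each table was fitted alone for cocaine against saline, and the 3 saline tables of 28 days together for the regions. For the regions at 1 day, edgeR was run on NAc counts together with the recovered reads of the VTA and PFC. P-values were adjusted by Benjamini-Hochberg over all genes tested, at 0.05, and measure only the spread between these libraries. Both fits and the read recovery were tested on simulated data. Alternatives were DESeq2 1.42.0, its size factors, edgeR on recovered reads, a pseudocount of 1, no filter, the replicate number as a block, leaving out each library, and cell marker lists as covariates. limma without trend and the fibroblast and dopamine neuron covariates were chosen after seeing the data.

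All 10 members are named. Of the 2 guidance lists, genes called in a comparison are named from at most 3 per list, direction and comparison by smallest adjusted p, and for each member the 3 genes with the highest r. Members and lists were chosen with earlier results of these data known. Listed genes not matched by symbol were Mical3, Efna5, Draxin, Lamp5, Cux2, Drd1 and Cemip. Promoters are RefSeq's (GRCm38.p6).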

Additional observations from a re-analysis of the deposited data

Results flagged for a closer look

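Of 120 groups of libraries of 1 member, 8 held a library whose gap to its nearest neighbor was large for the range of its group (Dixon's 95% limit), and chance gives about 1 in 20. PFC saline library 4 at 28 days was far above its group in Sema3f, at 4.63 RPKM against 1.99 to 2.81 in the other saline libraries, and in Sema3e, at 4.99 against 3.94 to 4.22. This is the library with 1455 summed RPKM of medium spiny neuron markers.

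Plxna1 stood apart in 3 cocaine libraries. NAc library 5 at 1 day was at 9.82 RPKM against 4.11 to 5.67 in the others. NAc library 2 at 28 days was at 5.43 against 8.97 to 9.40. PFC library 5 at 1 day was at 8.56 against 11.5 to 12.8.

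Plxna2 was at 9.01 RPKM in VTA cocaine library 3 at 28 days against 7.32 to 7.88 in the others. Plxna4 was at 9.31 in NAc saline library 3 at 1 day against 10.6 to 11.3, and at 7.47 in VTA saline library 1 at 28 days against 9.27 to 10.0.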

How the results depend on the processing

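No member was called between cocaine and saline in the main tests. In the VTA at 1 day the count of members called became 1 with edgeR on recovered reads, with the replicate block and with limma without trend, 4 at an adjusted p under 0.25, and 0 to 1 when 1 library was left out. In the VTA at 28 days it became 1 with DESeq2. Of 320 log2 differences of members under the alternatives, 310 moved by less than 1 SD of the libraries within groups. All 710 that left out 1 library did so too. Leaving out 1 library can hardly move a group mean by 1 SD, so nothing is read from that count. Changes of sign were not counted: Nrp1 in the VTA at 28 days ranged from -0.07 to 0.28 when 1 library was left out. Counts over all genes depended on the tool. In the VTA at 1 day they were 10 by limma, 55 by edgeR, 60 with the replicate block and 28 without trend. There limma called 0 with the fibroblast or cortical covariate and 10 with the dopamine neuron covariate. By edgeR and DESeq2 the counts were 0 and 74 in the VTA at 28 days and 2 and 21 in the NAc at 1 day. They were 0 and 14 in the NAc and 0 and 2 in the PFC at 28 days.

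Between regions, 145 of 180 member differences kept direction and call, and 14 turned. In the 1-day saline libraries, NAc minus VTA turned to 0.64 for Nrp2 (0.65 with the replicate block), 0.0063 for Plxna4 (0.010), 0.042 for Sema3c (0.088) and -0.16 for Sema3f (-0.18), and VTA minus PFC to -0.53 for Nrp1 (-0.53) and 0.047 for Plxna1 (0.048). In the 28-day cocaine libraries, NAc minus PFC turned to 0.065 for Plxna2 and -0.055 for Sema3a. Leaving out 1 library gave -0.058 to 0.015 for Plxna2 (NAc minus PFC), and -0.17 to 0.16 for Nrp1 and -0.38 to 0.14 for Sema3e (VTA minus PFC). The causes were not tested. Member counts without 1 library were 7 to 8, 4 to 6 and 5 to 6 for NAc against VTA, NAc against PFC and VTA against PFC.

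At 1 day, libraries of the same number did not deviate together in every pair: r was over 0.1 in 3 of 6 pairs in the NAc, 3 in the VTA and 0 in the PFC, and in 1 or 2 of 6 between regions, and not every library correlated best with its own number. With the replicate block 0 members were called in the NAc and 0 in the PFC, and 6, 6 and 7 between regions at 1 day. No paired analysis was possible at 28 days because the columns carry no labelled numbers. Depth limits Sema3a most, at 18 reads in its lowest library.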
